A study of Mus musculus with 6 samples.

Results

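Immune and epithelial cells break down tryptophan, make itaconate and split arginine through a small set of enzymes that inflammation can switch on. The expression of 8 of these genes was compared in colitis mice receiving berberine (BBR), a plant alkaloid, or sulfasalazine (SASP), an aminosalicylate drug given for ulcerative colitis. The genes were Ido1, Kynu, Kmo, Acod1, Arg1, Arg2, Ass1 and Gch1. They were found by symbol among the 18268 genes of the deposited expression table, where each of the 8 was listed once. Ido1 was the only member past the threshold of the main test, at a 9.13-fold lower mean level in BBR than in SASP mice. This call was lost in 3 of the 6 fits that left out 1 mouse. Arg2 was higher in every BBR mouse than in every SASP mouse but fell just short of the threshold (limma adjusted p = 0.0552). Acod1, like Ido1, was lower in every BBR mouse than in every SASP mouse, although at levels that rest on few reads.

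The tissue was the colorectum of C57BL/6 mice with no engineered allele in either group, described by the study as adult males. The study calls its berberine sequencing samples rectal and its sulfasalazine ones colon. Whether the gut site differed between these libraries was not settled here. All 6 mice had colitis from 7 days of dextran sulfate sodium (DSS), which damages the gut lining. For 6 days 3 of them also received BBR and the other 3 received SASP, both by gavage. Healthy mice and colitis mice without a drug were not analysed here, so every difference is between the drugs, and neither drug can be called the one that moved a gene. The labels do not state that each library is a separate animal, which is taken from the study's account of its groups.

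Levels are given as FPKM, fragments scaled to transcript length and to the mapped reads of the library. They allow an approximate comparison between genes and between mice, since summed FPKM still ran from 461163 to 487054 per library. The estimated depth was 16436555 to 18181818 reads per library, figures that are approximate. BBR mouse 3 stood apart from its group, with a correlation of log2 values across genes of 0.949 and 0.953 with BBR mice 2 and 1, which correlated at 0.987. For the members and for each other pathway gene named, the value without this mouse is given where it changes the call. Epcam, an epithelial adhesion gene, was at 833 to 1101 FPKM, so epithelium was present in each library. The summed level of 9 markers of squamous epithelium was 1.27 to 2.85 FPKM across the 6 libraries, so little squamous lining was present.

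As background, the enzyme IDO1 opens the ring of tryptophan and starts the kynurenine pathway, and interferon gamma is its classical inducer. KMO and KYNU act later in that pathway, on kynurenine and its hydroxylated form. ACOD1 sits in mitochondria of activated macrophages and makes itaconate from a citrate cycle intermediate. Arginine is shared between nitric oxide synthases and arginases, ASS1 helps to rebuild it from citrulline, and GCH1 starts the synthesis of tetrahydrobiopterin, the cofactor that nitric oxide synthases need.

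The levels of the 8 genes covered a wide range, and the place of Ido1 in the order differed between the groups. In SASP mice Ido1 had the highest mean, 80.0 FPKM, followed by Ass1 at 21.7, Gch1 at 19.8 and Arg2 at 1.58 FPKM. Acod1, Kmo, Kynu and Arg1 followed at 0.637, 0.377, 0.260 and 0.187 FPKM. In BBR mice Ass1 was first at 24.4 FPKM, then Gch1 at 16.4 and Ido1 at 8.77 FPKM. The ranges of Ass1 and Gch1 overlapped within each group, although Ass1 was the higher of the pair in 6 of 6 libraries, by as little as 20.69 against 20.44 FPKM in SASP mouse 3. The ranges also overlapped for Ido1 and Gch1 in BBR mice and for Kmo, Kynu and Arg1 in either group.

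**Figure D1:**
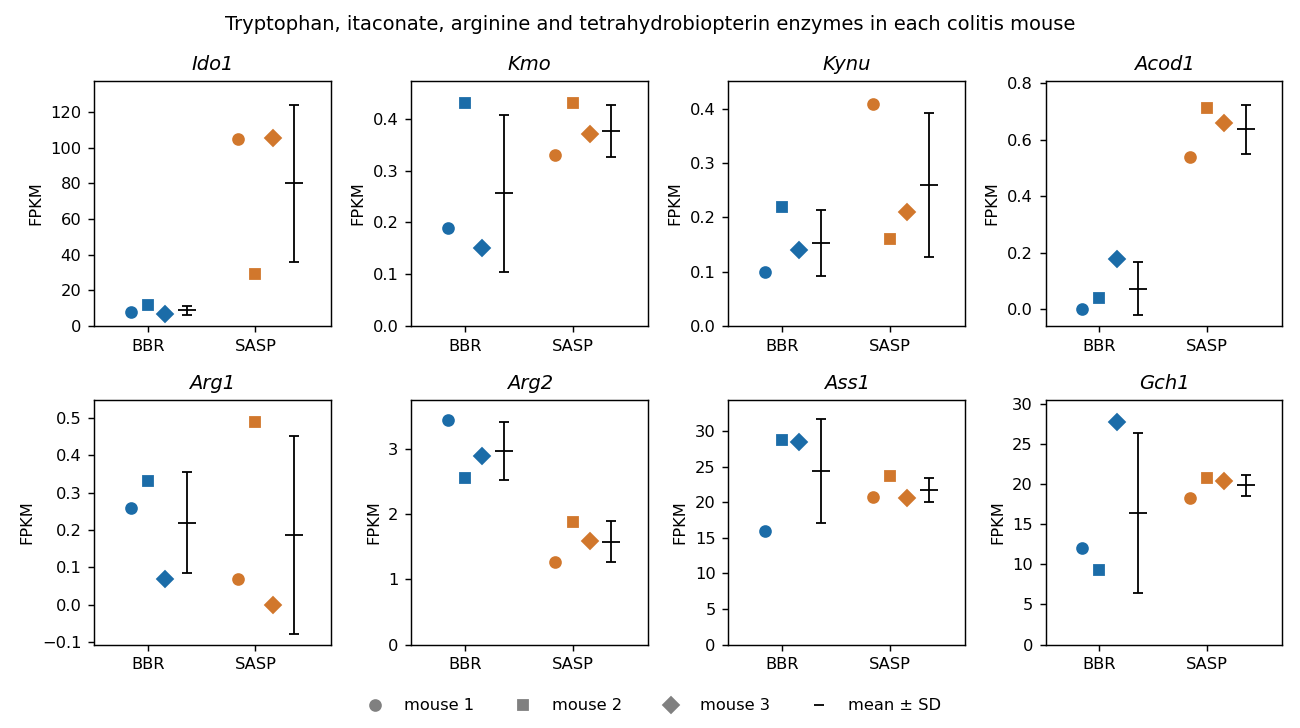
Expression of the 8 enzymes in FPKM on the vertical axis of each panel, for 3 BBR mice (blue) and 3 SASP mice (orange), with each mouse as a symbol and the mean with its SD in black. Ido1 and Acod1 lie lower in all BBR mice than in all SASP mice, Arg2 lies higher in all BBR mice, and the groups overlap in the other 5 panels.

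Genes were tested if they reached 1 FPKM in at least 3 of the 6 libraries. Of the 8 members 4 passed this filter, namely Ido1, Arg2, Ass1 and Gch1, while Kynu, Kmo, Acod1 and Arg1 did not and are described by their values. Differences were tested on log2(FPKM + 1) with limma, with Benjamini-Hochberg adjustment over all 12072 genes tested. A log2 fold change below 0 means a lower level in BBR mice. On this threshold 5.04% of all genes tested were lower in BBR mice, 3.82% were higher and 8.86% differed in either direction. Among the 4 tested members 1 was lower, Ido1, and 0 were higher, and at an unadjusted p under 0.05 Ido1 and Arg2 differed. Their median log2 fold change was -0.14, against 0.10 for all genes tested. Without BBR mouse 3, 4018 of 11878 genes tested passed the threshold, against 1069 of 12072 with all mice. With array weights, which weight each library by how closely it follows its group, 7126 of 12072 passed. A call gained in either fit was therefore shared by many genes.

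Tryptophan breakdown was compared first, because its entry gene carried the difference. Ido1 (Gene ID 15930) was at 7.63, 11.7 and 6.94 FPKM in BBR mice 1, 2 and 3 and at 105, 29.4 and 106 FPKM in SASP mice 1, 2 and 3. All BBR values lay below all SASP values, and SASP mouse 2 was well below the other two of its group. The means were 8.77 ± 2.59 FPKM under BBR and 80.0 ± 43.8 FPKM under SASP (SD, n = 3 each). The log2 fold change was -2.87 (SE 0.49, 95% interval -4.03 to -1.72, limma adjusted p = 0.0219), which was rank 47 from the lowest of the 12072 genes tested. The call was lost without BBR mouse 1 (-2.80), SASP mouse 1 (-2.58) or SASP mouse 3 (-2.57), with limma adjusted p-values of 0.0729, 0.101 and 0.0936, while the direction held. It was also lost when a smooth muscle score was added as a covariate (-1.97, adjusted p = 0.208). Smooth muscle marker sums did not overlap between the groups, at 2814 to 6671 FPKM in BBR and 716 to 2244 FPKM in SASP mice. With this covariate 19 of 12072 genes tested passed, so the fit cannot tell drug and muscle content apart.

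Kmo and Kynu, which act after Ido1, were measured at far lower levels. Kmo (98256) was at 0.19, 0.43 and 0.15 FPKM in BBR mice and at 0.33, 0.43 and 0.37 FPKM in SASP mice. Kynu (70789) was at 0.10, 0.22 and 0.14 FPKM and at 0.41, 0.16 and 0.21 FPKM. Both overlapped between the groups, and at about 4.6 to 28.7 reads per library a modest difference was not detectable at this depth. In SASP mice the level of Ido1 was 68.4 to 318 times that of Kmo and 184 to 503 times that of Kynu, whereas in BBR mice it was 27.3 to 46.3 and 49.6 to 76.3 times. Haao and Qprt, which carry the pathway on toward NAD, were at 0.13 to 0.91 and at 0.04 to 0.18 FPKM and also overlapped. Aadat and Acmsd were below the filter as well. Afmid, which acts directly on formylkynurenine, was tested and was at 8.36 ± 0.639 and 5.92 ± 0.895 FPKM (SD, n = 3 per group, log2 fold change 0.44, limma adjusted p = 0.0877). Afmid passed without BBR mouse 3 (0.50, adjusted p = 0.0355), and in BBR mice it was at a level like that of Ido1.

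Of other enzymes that act on tryptophan itself, Ido2, Tdo2 and Il4i1 were far below the level of Ido1. Tph1, tryptophan hydroxylase, was not far below it in BBR mice, at 6.77, 6.95 and 4.34 FPKM. In SASP mice Tph1 was at 5.38, 3.53 and 3.04 FPKM, and the groups overlapped (log2 fold change 0.50, limma adjusted p = 0.188). Without BBR mouse 3 Tph1 passed the threshold (0.69, adjusted p = 0.0451). Ido2, a close relative of Ido1, ranged from 0.06 to 0.22 FPKM under BBR and from 0.12 to 0.15 FPKM under SASP. Tdo2, the liver-type tryptophan dioxygenase, was at 0 to 0.13 and 0.06 to 0.22 FPKM. Il4i1, a secreted enzyme that oxidises tryptophan and other aromatic amino acids and was singled out after its values had been seen, was at 0.35, 0.73 and 0.43 FPKM in BBR and at 1.87, 0.95 and 1.15 FPKM in SASP mice. The groups did not overlap, as was the case for 16.6% of the 6188 genes that fell below the filter and were above 0 in some library. In 3.46% of these genes the groups were apart with lower BBR values, as for Il4i1.

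Of the other 18 genes on the tryptophan list, 11 were tested, 1 was lower and 1 was higher in BBR mice. The lower gene was Wars, which loads tryptophan onto its transfer RNA and is itself known as an interferon gamma target. Its BBR values were 32.2, 36.1 and 49.0 FPKM and its SASP values 380, 171 and 394 FPKM. Like Ido1, Wars was apart between the groups with its lowest SASP value in mouse 2. Its log2 fold change was -2.90 (SE 0.34, limma adjusted p = 0.00835), and the call was lost without SASP mouse 1 (-2.72) or SASP mouse 3 (-2.70), with adjusted p-values of 0.0523 to 0.0545, and with the smooth muscle covariate (-2.69, adjusted p = 0.127).

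The higher gene was Ddc, which makes serotonin and dopamine from their amino acid precursors. Ddc was at 63.3, 67.8 and 34.2 FPKM in BBR and at 18.2, 26.3 and 18.7 FPKM in SASP mice, with no overlap. The log2 fold change was 1.31 (SE 0.28, limma adjusted p = 0.0378), and leaving out any mouse other than BBR mouse 3 ended the call, at 1.13 to 1.47 and adjusted p-values of 0.0612 to 0.151. Ddc kept its call in 8 of 15 alternatives. Maoa, Kyat1 and Slc3a2, the most abundant genes on the list without a call, changed by 0.08, 0.06 and 0.04 and overlapped between the groups. They encode an enzyme that degrades serotonin, a kynurenine aminotransferase and the heavy chain of an amino acid carrier.

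The gene of itaconate synthesis lay in the same direction as Ido1 but at the edge of detection. Acod1 (16365) was at 0, 0.04 and 0.18 FPKM in BBR mice and at 0.54, 0.71 and 0.66 FPKM in SASP mice. The groups were apart, with BBR mouse 3 the highest of its group and SASP mouse 2 the highest of all. These values stand for roughly 0, 1.7 and 7.9 reads in BBR and 25.1, 33.9 and 29.1 reads in SASP libraries. The ratio of the means was 8.68, and since 1 BBR library held no read and another about 1.7, its size is poorly fixed. Among genes below the filter, 3.46% were apart with lower BBR values. With 3 mice a group the smallest two-sided p of an exact permutation test is 0.10, so none was run. Acod1 passed the threshold when all genes above 0 in any library entered the fit (log2 fold change -0.61 on log2(FPKM + 1), limma adjusted p = 0.0210).

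A promoter sequence is shown for Acod1, the lower member that the RefSeq promoter table covers, to let the start of the gene be read beside its values. Of the 8 members the table held Kmo, Acod1, Ass1 and Gch1. The window is the 250 bases before the RefSeq start, on the + strand of build GRCm38.p6 at chr14:103046762-103047011, with the letters TATAAA in capitals.

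Acod1: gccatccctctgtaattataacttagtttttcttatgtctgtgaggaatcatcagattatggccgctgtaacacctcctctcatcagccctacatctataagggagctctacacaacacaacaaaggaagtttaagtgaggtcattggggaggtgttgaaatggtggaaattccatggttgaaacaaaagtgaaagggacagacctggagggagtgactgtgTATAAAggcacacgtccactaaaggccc

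Searched on both strands, TATAAA began 28 bases before the start of Acod1 and was found in 12.4% of all 32851 promoter windows of this length. It was also in the window of Gch1, beginning 188 bases before the start on the opposite strand. A pair of GAAA repeats spaced by 2 bases, the core of interferon-stimulated response elements, was in 2.98% of all windows and TTCNNNGAA, a gamma-activated sequence core, in 7.02%. Neither was in the windows of Acod1, Kmo, Ass1 or Gch1. The windows were read from a newer genome build than the one named for the expression values, and a match or its absence describes only these letters.

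The neighbours of itaconate in the citrate cycle held no call. Of 17 other genes on this list 14 were tested, and 0 passed the limma threshold in either direction. At an unadjusted p under 0.05 there were also 0. Without BBR mouse 3, 1 of them passed, Clybl (0.54, limma adjusted p = 0.0120), named after its values were seen. Their median log2 fold change was -0.12. Cs, citrate synthase, and Sdhd, a subunit of the succinate dehydrogenase that itaconate inhibits, changed by 0.07 and -0.19 (limma adjusted p = 0.657 and 0.273).

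Arginase genes followed, since Arg1 is a common marker of alternatively activated macrophages. Arg1 (11846) was at 0.26, 0.33 and 0.07 FPKM in BBR mice and at 0.07, 0.49 and 0 FPKM in SASP mice. The groups overlapped fully, at 0 to 13.2 estimated reads per library. Arg2 (11847), the mitochondrial arginase, was the more abundant form in each library, although still low. Arg2 was at 3.43, 2.55 and 2.89 FPKM in BBR and at 1.26, 1.88 and 1.59 FPKM in SASP mice, and no SASP value reached the lowest BBR value. Such a separation was seen in 37.9% of all genes tested, with BBR mice higher in 21.3% and lower in 16.6%. The means were 2.96 ± 0.444 and 1.58 ± 0.310 FPKM (SD, n = 3 each). The log2 fold change was 0.62 (SE 0.16, 95% interval 0.25 to 0.99) and fell short of the threshold (limma adjusted p = 0.0552). Arg2 passed it without BBR mouse 3 (0.63, adjusted p = 0.0363), with no variance trend (0.0478) and with array weights (0.0006).

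Ass1 (11898), the enzyme that joins citrulline and aspartate, was at 15.9, 28.7 and 28.6 FPKM in BBR and at 20.8, 23.7 and 20.7 FPKM in SASP mice. BBR mouse 1 was the lowest and the other two BBR mice the highest of all 6. The log2 fold change was 0.12 (SE 0.23, 95% interval -0.42 to 0.65, limma adjusted p = 0.740), and its sign changed in 5 of 15 alternatives. Asl, which completes arginine synthesis, was at 18.0 ± 1.45 and 14.1 ± 1.58 FPKM (SD, n = 3 per group, log2 fold change 0.33, adjusted p = 0.116), and it passed the threshold without BBR mouse 3 (0.39, adjusted p = 0.0456).

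**Figure D2:**
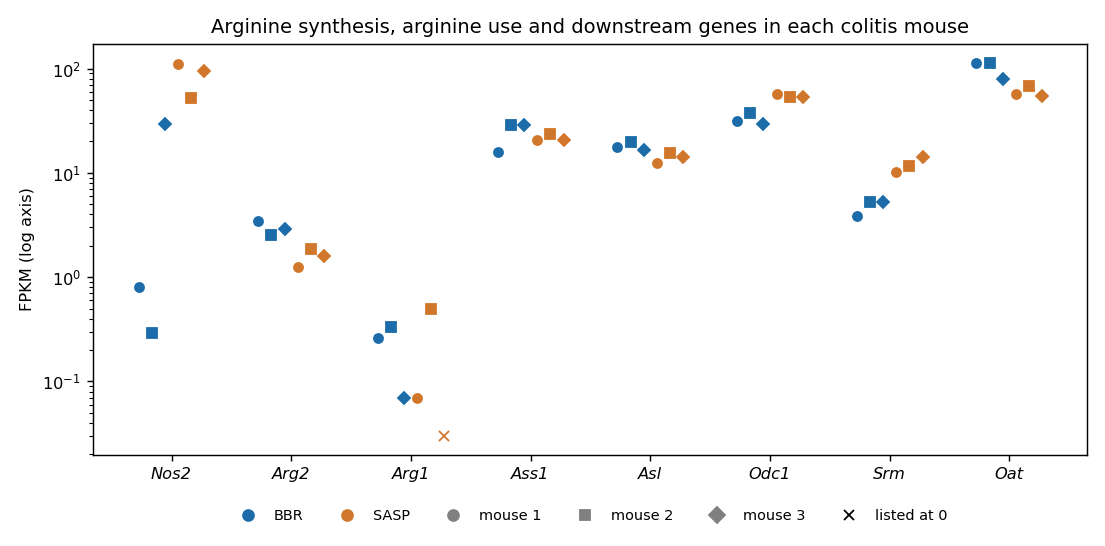
FPKM on a log axis for genes of arginine synthesis, use and downstream metabolism in each BBR mouse (blue) and SASP mouse (orange), with a cross for a value listed at 0. Nos2 spans from 0.29 FPKM in BBR mouse 2 to 110 FPKM in SASP mouse 1, while Ass1 stays between 15.9 and 28.7 FPKM.

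The other main user of arginine, Nos2, the inducible nitric oxide synthase, had the widest range on the list. It was at 0.80, 0.29 and 29.3 FPKM in BBR and at 110, 52.7 and 94.2 FPKM in SASP mice. The groups were apart, but BBR mouse 3 lay far above the other two of its group. The log2 fold change was -4.33 (SE 1.12, limma adjusted p = 0.0587), and without BBR mouse 3 it was -5.76 (adjusted p = 0.00084). The ratio of Nos2 to Arg2 was 0.233, 0.114 and 10.1 in BBR mice and 87.4, 28.0 and 59.2 in SASP mice. SASP mice thus held more Nos2 than Arg2 transcript in 3 of 3 cases, and BBR mice in 1 of 3. Slc7a2, an arginine carrier of activated macrophages, was at 0.35 to 0.67 and 0.31 to 0.51 FPKM and overlapped. Slc7a7, part of another cationic amino acid carrier, was at 15.2 to 16.1 and 14.1 to 17.0 FPKM.

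Of the 19 arginine genes other than members 13 were tested, 2 were higher and 1 was lower in BBR mice. Ddah1 and Ddah2 both clear methylated arginines that inhibit nitric oxide synthases, and they moved in opposite directions. Ddah1 was at 3.43, 2.34 and 9.45 FPKM in BBR but at 18.7, 18.1 and 13.3 FPKM in SASP mice, a difference of -1.71 on the log2 scale (SE 0.40, limma adjusted p = 0.0472). Ddah2 was at 4.96, 6.58 and 5.97 and at 2.42, 3.02 and 2.64 FPKM (0.88, SE 0.14, adjusted p = 0.0201). Both genes were apart between the groups. Oat, which turns ornithine from the arginase reaction toward proline and glutamate, was higher at 102 ± 19.9 against 59.8 ± 7.12 FPKM (SD, n = 3 per group, log2 fold change 0.74, adjusted p = 0.0444). The calls of Ddah1 and Oat were lost on leaving out any mouse other than BBR mouse 3, at -1.85 to -1.36 and 0.65 to 0.84. Over all 15 alternatives, pseudocounts, filters and variance models included, Ddah1 kept its call in 4 and Oat in 7. That of Ddah2 did not survive leaving out BBR mice 1 or 2 and SASP mice 1 or 3, one at a time, at 0.81 to 0.98.

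Downstream of arginase, 15 polyamine and proline genes were tested, of which 3 were lower and 0 higher in BBR mice. Odc1, the rate-limiting enzyme of polyamine synthesis, was at 31.3, 37.5 and 29.5 FPKM in BBR and at 56.7, 53.7 and 53.5 FPKM in SASP mice. The groups were apart, and Odc1 was lower by -0.73 on the log2 scale (SE 0.11, limma adjusted p = 0.0186). Srm, spermidine synthase, was at 3.85, 5.24 and 5.26 and at 10.3, 11.7 and 14.2 FPKM (-1.17, SE 0.17, adjusted p = 0.0153). Prodh, which degrades proline, was at 1.23, 1.89 and 1.04 and at 3.31, 3.10 and 3.01 FPKM (-0.81, SE 0.17, adjusted p = 0.0350). The 3 calls were lost without BBR mouse 1, SASP mouse 1 or SASP mouse 3, at -0.74 to -0.70 for Odc1, -1.27 to -1.05 for Srm and -0.83 to -0.77 for Prodh, and those of Odc1 and Prodh also without SASP mouse 2. That of Prodh was lost with no filter too. Oaz1, Sat1 and Azin1, which encode a brake on ornithine decarboxylase, a polyamine acetyltransferase and an inhibitor of that brake, changed by 0.08, 0.29 and 0.08 (adjusted p = 0.584, 0.282 and 0.837).

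**Figure D3:**
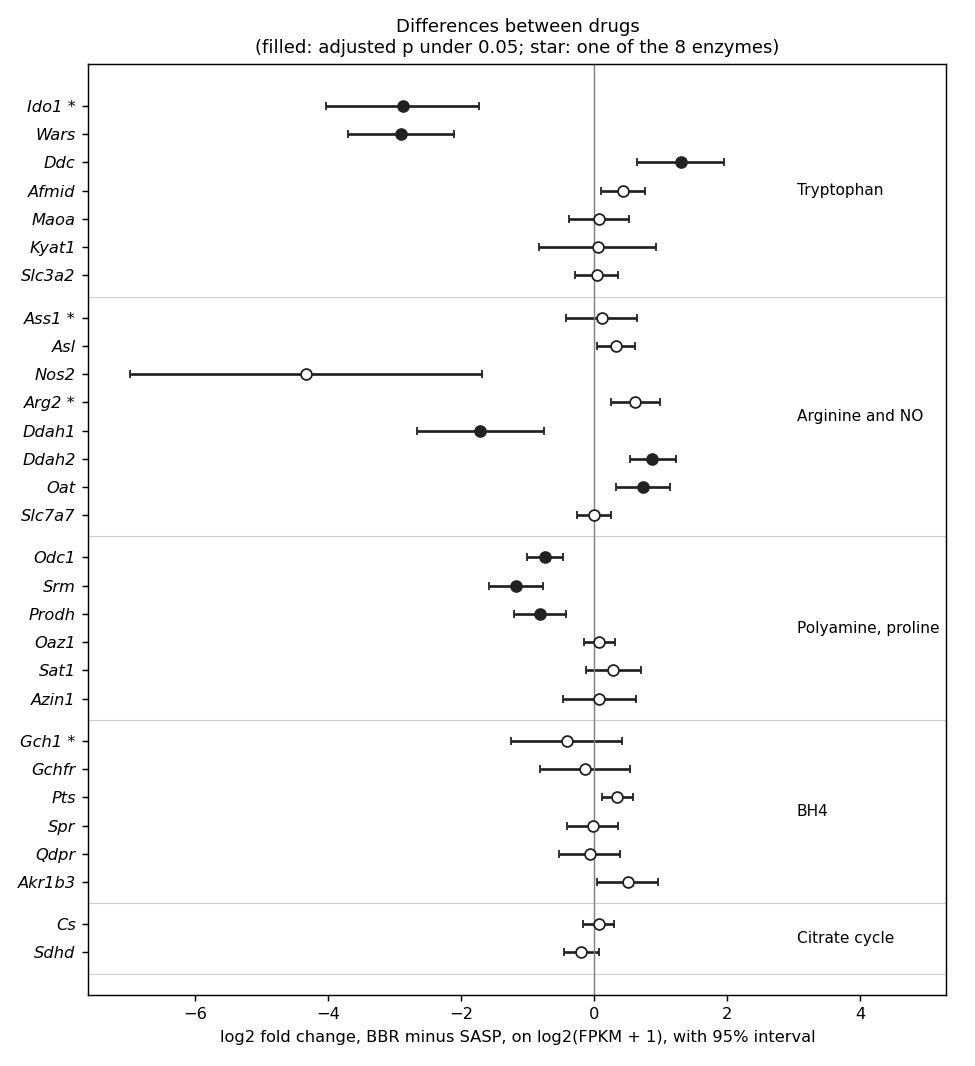
Log2 fold change of BBR minus SASP mice with its 95% interval for the named genes of each pathway, on the log2(FPKM + 1) scale, with filled points for a limma adjusted p under 0.05 and a star for members. Ido1 and Wars lie near -2.9, Nos2 has the widest interval, and the tetrahydrobiopterin and citrate cycle genes hold no filled point.

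Cofactor synthesis was examined because nitric oxide synthases depend on tetrahydrobiopterin. Gch1 (14528) was at 12.04, 9.29 and 27.7 FPKM in BBR mice and at 18.3, 20.7 and 20.4 FPKM in SASP mice. BBR mice 1 and 2 were the lowest of the 6, and BBR mouse 3 was the highest. The means of 16.4 ± 9.95 and 19.8 ± 1.32 FPKM (SD, n = 3 each) gave a log2 fold change of -0.41 (SE 0.35, 95% interval -1.24 to 0.43, limma adjusted p = 0.447). Without BBR mouse 3 Gch1 was lower in BBR mice (-0.84, adjusted p = 0.00691). The same held with array weights (-0.71, adjusted p = 0.00154). In those fits 4018 of 11878 and 7126 of 12072 genes tested passed, against 1069 in the main fit. Leaving out BBR mouse 1 or 2 moved Gch1 the other way, to -0.27 and -0.10 (adjusted p = 0.711 and 0.869). The smooth muscle covariate gave -1.11 (adjusted p = 0.253). Gch1 and Nos2 thus shared their high BBR value in mouse 3. So did S100a8, a neutrophil gene, which was listed at 0 in BBR mice 1 and 2 and at 6.19 FPKM in BBR mouse 3, and whose part in these values was not tested.

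The rest of the tetrahydrobiopterin pathway stayed short of the threshold, with 0 of 8 other genes called by limma in either direction. At an unadjusted p under 0.05 there were 3, among them Pts and Akr1b3, an aldose reductase gene that passed without BBR mouse 3 (0.70, limma adjusted p = 0.0132). Pts, the next enzyme after GCH1, was at 34.5, 31.8 and 35.4 FPKM under BBR and at 24.6, 27.9 and 26.6 FPKM under SASP (log2 fold change 0.35, limma adjusted p = 0.0671), and passed without BBR mouse 3 (0.32, adjusted p = 0.0384). Gchfr, which encodes the feedback regulator that binds GCH1, was at 10.3, 7.34 and 17.9 FPKM in BBR and at 11.3, 11.9 and 13.9 FPKM in SASP mice, again with BBR mouse 3 highest. Spr and Qdpr, which complete and regenerate the cofactor, changed by -0.01 and -0.06, with 95% intervals of -0.40 to 0.37 and -0.53 to 0.40. BBR mouse 3 was the lowest of its group in 6 of the 9 genes on this list and the highest in Gch1, Gchfr and Pts, or 66.7% and 33.3%, against 61.9% and 22.9% of all genes tested.

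The known inducers of Ido1 were set beside it. Ifng, the gene of interferon gamma, was listed at 0 in 3 of 3 BBR mice and at 1.19, 0.30 and 0.21 FPKM in SASP mice, below the filter. The genes of its receptor and kinases, Ifngr1, Ifngr2, Jak1 and Jak2, did not pass the threshold, with log2 fold changes of -0.07, 0.45, 0.16 and 0.20. Ifngr2 passed it without BBR mouse 3 (0.54, limma adjusted p = 0.0148). On this list 4 of 8 tested genes were lower and 0 higher in BBR mice. Among the lower genes were the transcription factor genes Irf1 and Irf8 and the feedback inhibitor gene Socs1, at log2 fold changes of -1.68, -2.21 and -2.94 (limma adjusted p = 0.00478, 0.00171 and 0.0132). The call of Socs1 was lost without BBR mouse 1, SASP mouse 1 or SASP mouse 3, at -2.85 to -2.74, and those of Irf1 and Irf8 held without any single mouse. When the smooth muscle score entered the fit, each gene of the pathway lists named here as past the threshold lost its call. Their adjusted p-values then ran from 0.0564 for Irf8 to 0.267 for Prodh, in a fit where 19 of all 12072 genes passed.

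Variation among SASP mice was shared by these genes. In 6 of 6 of Ido1, Wars, Nos2, Irf1, Irf8 and Socs1, a set put together after the values had been seen, SASP mouse 2 had the lowest level of its group. That position was held in 25.5% of all genes tested and in 55.6% of the genes lower in BBR mice. Gch1 and Acod1 did not share it, since both had their highest SASP value in mouse 2. The 3 genes nearest to Ido1 in pattern were Upp1, Gbp8 and H2-DMb1, which encode a uridine phosphorylase, a guanylate-binding protein and an antigen-loading chain. Their centred log2 values differed from those of Ido1 by a root mean square of 0.18, 0.23 and 0.28 over the 6 libraries, where the values of Ido1 itself varied by 1.57. Upp1 was at 105, 111 and 74.7 FPKM in BBR mice and at 1251, 288 and 1135 FPKM in SASP mice.

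**Figure D4:**
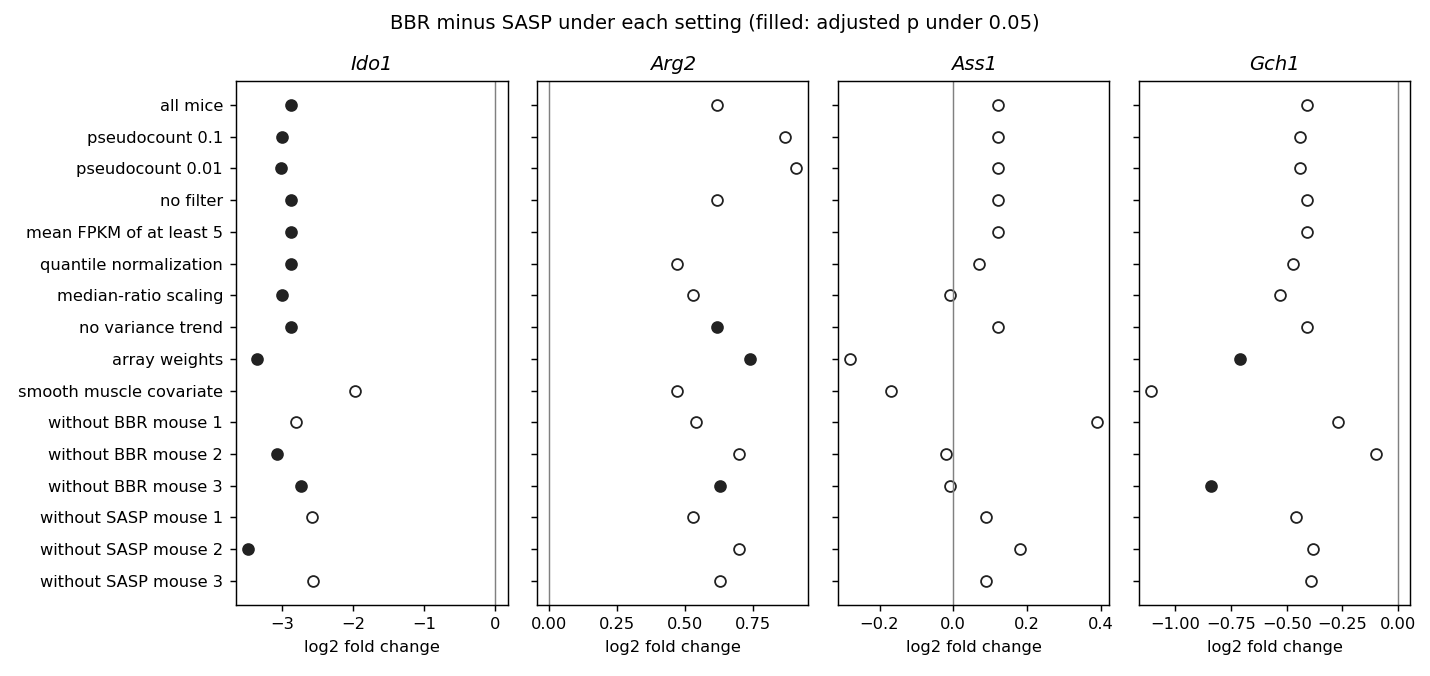
The 4 panels give the log2 fold change of BBR minus SASP mice for the 4 tested members under each setting, with a separate horizontal scale per panel and filled points for a limma adjusted p under 0.05. Ido1 stays between -3.48 and -1.97, Arg2 stays above 0 and has no point with the filter on a mean FPKM of at least 5, Ass1 crosses 0, and Gch1 has filled points without BBR mouse 3 and with array weights.

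Marker levels of several cell types differed between the groups, and in bulk tissue fewer cells of a type and less RNA per cell cannot be told apart. The summed level of 13 macrophage markers was 151 to 208 FPKM in BBR and 271 to 294 FPKM in SASP mice, with 2 of 11 tested markers lower, Cd14 and Fcgr1. Without Cd14, left out after its values had been seen, the sums were 119 to 188 and 178 to 198 FPKM and overlapped. Csf1r and Adgre1, also on this list, overlapped between the groups. They were at 2.88 to 5.43 and 0.94 to 2.21 FPKM in BBR mice. In SASP mice they were at 3.68 to 3.86 and 0.82 to 2.10 FPKM. Lyz2 was lower in every BBR mouse, at 59.2 to 92.9 against 99.1 to 113 FPKM. So was Itgam, below the filter, at 0.69 to 0.83 against 0.92 to 1.02 FPKM. Mrc1 was higher in every BBR mouse, at 2.63 to 3.08 against 1.5 to 2.14 FPKM. Lyz2 and Mrc1 did not pass the threshold (limma adjusted p = 0.117 and 0.102). The remaining markers on the list, apart from Cd14 and Fcgr1, overlapped. The 5 pan-leukocyte genes summed to 13.6 to 24.1 and 22.4 to 46.8 FPKM, and the 8 dendritic cell markers to 3.74 to 4.65 and 3.86 to 5.11 FPKM. T and NK cell markers summed to 4.28 to 7.66 and 4.17 to 9.97 FPKM.

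The granulocyte markers summed to 192 to 567 FPKM under BBR and 357 to 536 FPKM under SASP and overlapped. Without Ly6g, which took most of that sum and was left out after its values had been seen, they summed to 1.89 to 15.4 and 28.3 to 36.7 FPKM. Most of this rest was S100a8, at 0 to 6.19 and 18.5 to 23.1 FPKM, and S100a9, at 0.11 to 5.25 and 6.91 to 10.7 FPKM. The other markers on the list overlapped, and the means of Cxcr2 (1.35 and 1.15 FPKM) and Retnlg (0.253 and 0.15 FPKM) were higher in BBR mice. Smooth muscle markers were higher in BBR mice, at 2814 to 6671 FPKM against 716 to 2244 FPKM in SASP mice, as were fibroblast markers at 215 to 302 and 94.1 to 173 FPKM. Endothelial markers were at 20 to 35.8 and 11.8 to 16 FPKM, and colonic epithelial markers overlapped at 6285 to 8798 and 6192 to 6545 FPKM. Within that epithelial list 2 of 9 genes passed the threshold in opposite directions, Cdx2 higher at 11.8 to 22.9 against 3.74 to 9.13 FPKM (limma adjusted p = 0.0422) and Vil1 lower at 247 to 266 against 349 to 402 FPKM (adjusted p = 0.0327). The part of these shifts in the difference of Ido1, Acod1, Arg2 or Gch1 was not tested. The fit with the smooth muscle score cannot separate it from drug, since the smooth muscle sums did not overlap between the groups.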

How the data were processed

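RNA sequencing of colorectal tissue was compared between 3 BBR and 3 SASP libraries, grouped by the treatment label, with replicate numbers in accession order. The authors deposited FPKM values per gene and library, rounded to 2 decimals, made with Bowtie2 2.2.5 and RSEM 1.2.12 per the labels, whose processing notes name mm9. RSEM shares out reads that fit several genes. The study describes rRNA-depleted BGISEQ libraries, the labels an Illumina TruSeq kit, and which applies was not settled here. FPKM are not counts, so log2(FPKM + 1) was tested with limma 3.58.1 (R 4.3.3), two-sided, with a mean-variance trend, over genes at 1 FPKM in at least 3 libraries. The threshold was an adjusted p of 0.05. Depth was estimated from genes above 0 in 1 library with a GENCODE M21 transcript under 1500 bases, taking the typical value as 1 read. Estimated reads are this depth times FPKM and transcript length, so they are approximate. No depth was taken from reads, and no interval from counts is given.

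The members and gene lists were chosen with earlier results of these data known. All members are named, then per list up to 5 genes past the threshold and the 3 most abundant others, 12 fixed partner enzymes, and the 3 genes nearest in pattern to each member past the threshold. Other genes were named after seeing their values, and a few that the rule selects are not reported here. Alternatives were pseudocounts of 0.1 and 0.01, other filters and scalings, no trend, array weights, a smooth muscle covariate and leaving out each mouse. Fits were tested on simulated data. Promoters were taken from RefSeq, build GRCm38.p6.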

Additional observations from a re-analysis of the deposited data

How the results depend on the processing

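Ido1 kept its direction in 15 of 15 alternatives and its call in 11. Ass1 was below 0 with median-ratio scaling (-0.01), array weights (-0.28), the smooth muscle covariate (-0.17) and without BBR mouse 2 (-0.02) or 3 (-0.01), and ranged from -0.02 to 0.39 on leaving out 1 mouse. The count of members past the threshold, 1 with all mice, was 2 with no filter, 2 when the variance trend was dropped, 3 under array weights, 0 under the smooth muscle covariate, and between 0 and 3 on leaving out 1 mouse. The members' median was -0.50 with array weights and -0.64 with the covariate, and ran from -0.43 to 0.06 on leaving out 1 mouse. The 1069 differing genes became 608 with no filter, 1737 with quantile normalization, 7126 (4636 higher) with array weights and 19 with the covariate. Median-ratio scaling gave 1684, 498 higher and 1186 lower against 461 and 608, and moved the median of all genes by -0.12. When single mice were left out the count ranged from 51 without SASP mouse 3 to 4018 without BBR mouse 3, with 131, 371, 59 and 405 without BBR mouse 1, BBR mouse 2, SASP mouse 1 and SASP mouse 2. The cause was not tested, although the covariate and the left-out mice also cost degrees of freedom. No paired analysis was possible because replicate numbers follow accession order and pair no mice. Values under 1 FPKM, as in Kmo, Kynu, Acod1 and Arg1, are limited by depth.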
